A study of Homo sapiens with 21 samples.

Results

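Genes of the apicobasal polarity complexes were followed through a TGFβ time course in HMLE cells, a human mammary epithelial line that has been immortalized. The 8 genes were chosen by symbol: CRB3, PARD3, PARD6A, PARD6B, LLGL2, SCRIB, DLG1 and PRKCI, out of 23201 gene symbols in the table of normalized read counts. RNA was sequenced from untreated cells (d0) and from cells after 1, 4, 7, 10, 15 and 20 days of TGFβ, a cytokine that induces epithelial to mesenchymal transition (EMT), with 3 libraries at each of the 7 timepoints. The cells of all groups were seeded at an equal density, the dose of TGFβ is not given in the sources used here, and no untreated cells were sequenced at a later day, so that days of TGFβ and days in culture cannot be told apart. All 8 genes passed the filter of a mean of at least 10 over the 21 libraries that left 13343 genes for the test.

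Epithelial cells keep an apical and a basolateral domain apart through 3 protein modules that hold each other in check. The Crumbs complex (the membrane protein CRB3 with PALS1 and PATJ) and the PAR complex (the scaffolds PAR3 and PAR6 with an atypical protein kinase C and the GTPase CDC42) mark the apical side and the tight junction, whereas the Scribble module (SCRIB, DLG and LGL proteins) marks the basolateral side. Loss of this polarity is a textbook feature of EMT, and CRB3 and LLGL2 are known as targets of the EMT repressors ZEB1 and SNAI1, which bind the E-box letters CACCTG.

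The promoter windows of 3 members are shown because CRB3 was the member that fell furthest, PARD6A also fell, and PRKCI did not fall with the authors' scaling. The sequences are those of RefSeq on GRCh38.p14, from 250 bases before to 50 bases after the transcription start, 5′ to 3′ on the strand of the gene, and capitals mark each CACCTG or its reverse complement CAGGTG.
CRB3, chr19:6464021-6464320, plus strand: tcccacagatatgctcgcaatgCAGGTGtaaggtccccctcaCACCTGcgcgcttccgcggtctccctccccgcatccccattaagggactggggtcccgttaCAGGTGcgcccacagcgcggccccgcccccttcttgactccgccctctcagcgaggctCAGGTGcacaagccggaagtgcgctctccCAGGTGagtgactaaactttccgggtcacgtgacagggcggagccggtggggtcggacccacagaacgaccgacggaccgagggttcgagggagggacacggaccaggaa
PARD6A, chr16:67660710-67661009, plus strand: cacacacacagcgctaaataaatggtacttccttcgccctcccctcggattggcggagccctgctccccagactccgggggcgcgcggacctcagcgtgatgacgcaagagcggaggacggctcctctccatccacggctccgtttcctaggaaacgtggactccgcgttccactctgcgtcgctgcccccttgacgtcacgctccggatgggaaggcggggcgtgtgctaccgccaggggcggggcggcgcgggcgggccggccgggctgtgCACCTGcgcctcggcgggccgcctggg
PRKCI, chr3:170222174-170222473, plus strand: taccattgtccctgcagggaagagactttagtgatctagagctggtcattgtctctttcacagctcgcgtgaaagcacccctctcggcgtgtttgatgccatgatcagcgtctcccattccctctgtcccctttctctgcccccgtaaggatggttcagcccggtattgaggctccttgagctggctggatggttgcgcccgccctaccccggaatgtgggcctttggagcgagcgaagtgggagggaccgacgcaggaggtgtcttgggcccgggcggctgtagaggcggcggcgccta
RefSeq windows were matched by symbol for 4 of the 8 members (CRB3, PARD6A, PRKCI and DLG1), and LLGL2, PARD6B, PARD3 and SCRIB have no window here. The CRB3 window held 5 matches, all before the start, at 228, 208, 147, 89 and 60 bases from it when the first base of each match is counted. The PARD6A window held 1 match, 23 bases after the start, and the PRKCI window held 0. DLG1 has 5 windows, of which 1 held a single match. Among all 35116 windows of the same length, 20.6% held at least 1 match and 0.094% held at least 5, so 33 windows in all had as many as that of CRB3. A match describes these letters and does not show binding.

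The libraries held between 18847917 and 22667754 reads, and 3 reads or fewer were taken as the floor of detection. The 7 basal epithelial markers (KRT5, KRT14 and others) summed to between 254010 and 779529 over the libraries, and the 10 luminal markers to between 11502 and 16824, most of it KRT8 and KRT18, with 3 of the 10 (PGR, KIT and ELF5) at or under the floor throughout. Of 8 leukocyte markers 5 had at most 3 reads in every library, among them PTPRC and CD3E, and their list summed to between 356 and 836. The endothelial list of 5 genes summed to between 29.1 and 291 with CDH5 at no more than 1 read and KDR at up to 291 reads, and the adipocyte list of 4 genes to between 8.37 and 45.6. Of 8 listed EMT genes, such as VIM and FN1, 7 were tested and all 7 were higher than at d0 on every day, with ZEB1 at a mean of 5.71 at d0 and 433 at d20, while SNAI1 had at most 4 reads in any library. The third library of d7 stood apart from the other libraries of that day. Its root mean square difference (log2) from each was 0.457 and 0.472, against 0.223 between those. The limma results of the 8 members at d7 against d0 are therefore given with and without it. Other genes, list counts and list sums at d7 are given only with it. In bulk RNA, fewer cells that express a gene and less RNA per cell cannot be told apart.

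TGFβ treatment was accompanied by a split among the 8 genes. CRB3, LLGL2, PARD6A and PARD6B were lower than at d0 on all 6 days, and all 18 treated libraries lay below the lowest untreated library for each of them, a pattern that 9.98% of all genes tested showed. PARD6A passed the filter only through its untreated level (treated mean 9.16), so a difference from d0 was in part built in for that gene. PARD3, PRKCI, SCRIB and DLG1 were called lower on none of the days in the fit of all timepoints with the authors' scaling. Once the libraries were rescaled to the same total they were called lower on several days. Quantile normalization called SCRIB lower at d1 and d4, PRKCI at d10 and d20, and DLG1 at d1 and d20. SCRIB was also called lower on 3 days in a fit of only the 2 timepoints compared. By mean, each of the 4 was higher at d15, at 116% to 155% of the untreated mean. All 8 genes differed over the 7 timepoints (limma F test, largest adjusted p = 0.000243 for DLG1), where 95.9% of all genes tested did so too. The 6 comparisons share the untreated libraries, so the days are not independent of each other.

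**Figure D1:**
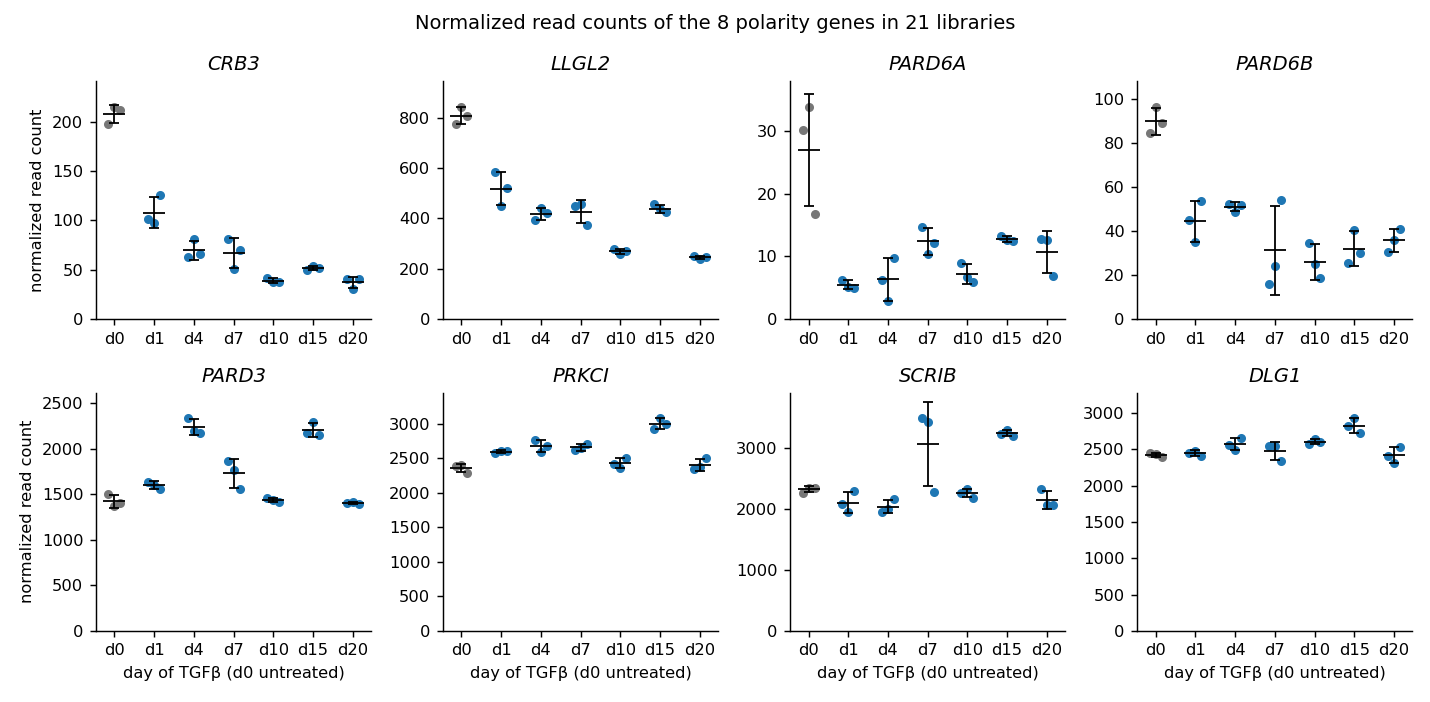
Normalized read counts (vertical axes, starting at 0) of the 8 polarity genes at the 7 timepoints (horizontal axes, evenly spaced), with a point for each library and bars for the mean ± SD (n = 3). CRB3, LLGL2, PARD6A and PARD6B lie below the untreated points in all 18 treated libraries, and PARD3, PRKCI, SCRIB and DLG1 have their points above the untreated ones at d15.

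On each day 4 of the 8 members were lower, among them PARD6A, which passed the filter only through its untreated level. Over all genes tested, 28.5%, 35.3%, 32.6%, 30.7%, 37.3% and 30.2% were lower, with the 6 days in order. In the same order, the members called higher numbered 2, 2, 3, 1, 4 and 0, against 31.3%, 36.9%, 34.6%, 37.0%, 39.2% and 32.5% of all genes. The median log2 fold change of the 8 members was -0.40, -0.50, -0.45, -0.81, -0.33 and -0.68, and without PARD6A it was -0.14, -0.19, 0.03, -0.04, 0.22 and -0.11, while that of all genes lay between 0.00 and 0.03. These medians fall in the gap between the genes that fell and those that did not, and so describe neither. At d15 each of the 8 genes was called, 4 in either direction. At d20 the number of members higher was 0 also at an unadjusted p under 0.05 in limma, and 0 with edgeR and with DESeq2.

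The scaling of the libraries bears on these counts. The treated libraries have higher summed values than the untreated ones, and rescaling every library to the same total moves the median change over all genes to between -0.14 and -0.20 (log2) from about 0. With this scaling the members called higher numbered 0, 1, 0, 0, 3 and 0 over the 6 days and those called lower 6, 6, 5, 8, 4 and 8, while 18.3% to 30.3% of all genes were higher and 47.2% to 50.8% lower. The 4 members that fell kept their calls on all 6 days, and the further calls were small changes of PARD3, PRKCI, SCRIB and DLG1. Changes of these 4 genes are given below with their rescaled values, since calls up to 0.37 (SCRIB at d7) were lost with that scaling.

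CRB3 is the short transmembrane protein that anchors the Crumbs complex at the apical membrane. Its normalized read counts were 198, 215 and 212 in untreated cells and 101, 97.4 and 126 at d1. They were 63.1, 80.8 and 65.6 at d4 and 81.3, 51.1 and 69.8 at d7. The counts at d10 were 41.8, 37.9 and 37.2, those at d15 were 49.98, 53.4 and 51.8, and those at d20 were 40.3, 30.5 and 41.1. No treated library reached the untreated range, and at d20 the gene stood at 17.9% of the untreated mean, the lowest of its 7 timepoints. The log2 fold change against d0 was -0.95 ± 0.16 (SE) on the first day (limma, adjusted p = 2.65e-05), then -1.57, -1.64, -2.39 and -1.99, and reached -2.46 ± 0.16 at d20 (adjusted p = 1.11e-11). The d7 value was -1.68 without the third library of that day. In the order of the means, d0 was above d1 (208 ± 9.43 against 108 ± 15.5, SD, n = 3) and d1 above d4 (69.8 ± 9.59), whereas d4 and d7 did not differ beyond their spread (adjusted p = 0.743), nor did d7 and d15 (0.0634) or d10 and d20 (0.742). CRB3 shares 15 of its 1592 exon bases with DENND1C on the opposite strand in GENCODE 29. Whether the authors' counting used strand is not given in the sources used here. DENND1C fell from 192 ± 7.1 at d0 to 32.4 ± 10.9 at d20, and its part in the values of CRB3 was not tested.

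LLGL2, an LGL protein of the basolateral side that restrains atypical protein kinase C, followed a like course at a higher level. It stood at 774, 844 and 806 in untreated cells, at 583, 449 and 521 at d1 and at 394, 442 and 422 at d4. The libraries of d7 held 449, 458 and 375, and those of d10 held 278, 258 and 270. At d15 the counts were back at 456, 436 and 425, and at d20 they were 252, 240.0 and 247, the lowest of the course. Even the highest treated library, at d1, stayed below the lowest untreated one. On the log2 scale LLGL2 changed by -0.65 ± 0.08 at d1 (adjusted p = 7.67e-07), by -0.95, -0.92, -1.58 and -0.88 on the following 4 days, and by -1.71 ± 0.08 at d20 (adjusted p = 8.71e-14), with -0.83 for d7 when the third library was left out. The means of d15, d7 and d4 (439, 427 and 419) did not differ from one to the next, but d1 lay above d15 (adjusted p = 0.0158) and d4 above d10 (5.75e-07). No difference was called between d10 and d20 (269 ± 9.65 and 246 ± 6.17, adjusted p = 0.229). LLGL2 thus had 2 low points, at d10 and d20, with d15 above both under every scaling and tool run. The d15 mean of CRB3 also lay above those of d10 and d20, but d15 was not called above d10 after quantile normalization (-0.03, adjusted p = 0.864) or by DESeq2 (0.0609).

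PARD6A and PARD6B encode PAR6 proteins, the adaptors that tie atypical protein kinase C to PAR3 and CDC42. PARD6A had the lowest mean count of the members, with 34, 40 and 17 reads in the untreated libraries. It had 6, 5 and 5 reads at d1, 6, 3 and 10 at d4, and 14, 10 and 13 at d7. At d10 it had 9, 7 and 6 reads, at d15 13, 14 and 12, and at d20 12, 12 and 7. A single library, at d4, was at the floor. The SD of the normalized count was wider in the untreated libraries (27.0 ± 9.01) than in any treated group. Its mean over the 18 treated libraries was 9.16, under the filter of 10, so the gene was tested only through its untreated level, and a difference was to that extent built into the filter. Its fold changes were -2.06 ± 0.35 (adjusted p = 2.82e-05), -1.99, -1.01, -1.73, -0.96 (at d15, adjusted p = 0.0156) and -1.24 over the 6 days in order, all on the scale of log2(count + 1), which understates changes this low. The call at d15 was lost without the first or the second untreated library (adjusted p = 0.0578 and 0.0781), and the call at d7 without either of them or without the second library of d7 (0.0503 to 0.0708). The call at d7 stood without the third library of that day (0.0261). Below d0, none of the neighbouring timepoints in the order differed beyond their spread. Further apart in the order, d7 and d15 lay above d1 (1.05 and 1.10, adjusted p = 0.0115 and 0.00681). They also lay above d4 (0.98 and 1.03, 0.0227 and 0.0149), and d15 lay above d10 (0.76, 0.0482).

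PARD6B stood at 84.5, 96.7 and 89.1 in untreated cells, at 45.0, 34.9 and 53.6 at d1 and at 52.6, 48.7 and 51.9 at d4. At d7 the libraries held 15.8, 24.0 and 54.0, and at d10 34.8, 25.3 and 18.6. The counts were 25.5, 40.7 and 30.0 at d15 and 30.7, 35.8 and 41.1 at d20. The third library of d7 was the highest of all 18 treated libraries and the first the lowest, so this group carried the widest spread of the gene (31.3 ± 20.1). Its log2 fold change was -1.02 ± 0.30 at d1 (adjusted p = 0.00617), -0.81 at d4 (0.0213), and -1.67, -1.78, -1.49 and -1.31 on the later days, with the smallest adjusted p at d10 (2.22e-05). Without the third library of d7 its fold change there was -2.15 (adjusted p = 1.55e-10). The call at d4 was lost without the second untreated library or without the second library of d4 (adjusted p = 0.0603 and 0.0549). Below d0 none of the neighbouring timepoints in the order of PARD6B differed beyond their spread. Further apart, d7 and d10 lay below d4 (-0.87 and -0.98, adjusted p = 0.0205 and 0.00638).

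**Figure D2:**
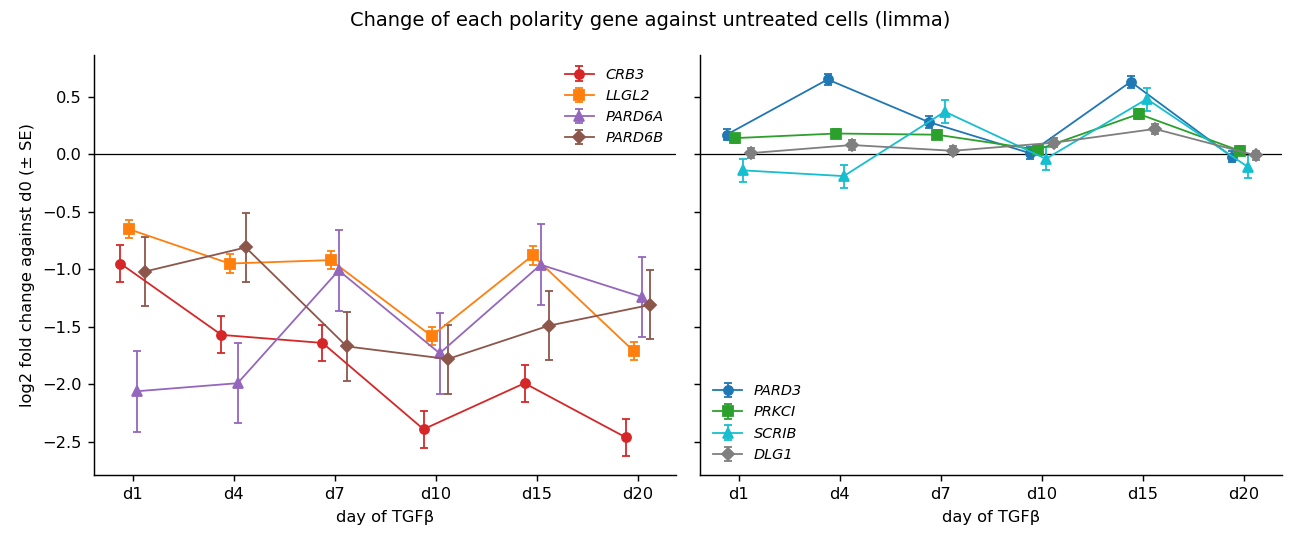
Log2 fold change against untreated cells (vertical axis, ± SE from limma) of the 4 members that fell (left) and the 4 not called lower with the authors' scaling (right) on the 6 days of TGFβ (horizontal axis, evenly spaced). On the left all values lie between -0.65 and -2.46, and on the right all lie between -0.19 and 0.65, with all 4 genes above 0 at d15.

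The other members of the PAR complex were not called lower on any day with the authors' scaling. PARD3, the scaffold that places the complex at the tight junction, stood at 1504, 1367 and 1397 in untreated cells. At d1 the counts were 1636, 1602 and 1554, and at d4 they were 2333, 2196 and 2174. The libraries of d7 held 1865, 1759 and 1555, and those of d10 held 1459, 1435 and 1413. Those of d15 held 2165, 2289 and 2149, and those of d20 held 1403, 1410.3 and 1391. The untreated range was left upwards at d1, d4, d7 and d15 and was met again at d10 and d20. PARD3 was higher by 0.17 ± 0.05 on the log2 scale at d1 (adjusted p = 0.00905), by 0.65 at d4 (3.88e-10), by 0.28 at d7 (9.25e-05) and by 0.63 at d15 (4.5e-10). Without the third library of d7 the value there was 0.35 (3.22e-09). The remaining days, d10 and d20, were at 0.01 (0.823) and -0.02 (0.754). With the libraries rescaled to the same total the values at d4 and d15 were 0.45 and 0.47, still called, whereas d7 was no longer called (0.08, adjusted p = 0.138). On that scaling d1 turned to -0.03, and d10 and d20 were called lower (-0.21 and -0.22, adjusted p = 0.00079 and 0.000597). In the order of the means d4 and d15 (2234 ± 86.1 and 2201 ± 76.7) did not differ (adjusted p = 0.745), and neither did d10, d0 and d20 from one to the next, whereas d1 lay above d10 (0.0284).

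PRKCI, the atypical protein kinase C iota that phosphorylates LGL and PAR3, moved within a narrower band. The untreated libraries held 2381, 2405 and 2291, those of d1 2578, 2611 and 2601, and those of d4 2761, 2585 and 2679. The libraries of d7 held 2615, 2650.2 and 2706, those of d10 2410.4, 2361 and 2506, those of d15 2927, 3081 and 3003, and those of d20 2337, 2369 and 2499. Only d10 and d20 overlapped the untreated libraries. PRKCI was higher by 0.14 ± 0.04 at d1 (adjusted p = 0.00262), by 0.18 at d4, by 0.17 at d7 and by 0.35 at d15 (1.88e-08) on the log2 scale, and was at 0.04 (0.343) and 0.03 (0.563) on the 2 days that overlapped. The value of d7 without the third library of that day was 0.16. After rescaling to the same total only d15 stayed higher (0.19, adjusted p = 0.000148), and the values were -0.05, -0.02 and -0.02 at d1, d4 and d7. On that scaling d10 and d20 were called lower (-0.19 and -0.17, adjusted p = 0.000196 and 0.000412). Both days were also called lower after quantile normalization (-0.15 and -0.12).

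SCRIB, the large scaffold of the basolateral module, changed most at d7 and d15. It stood at 2270.2, 2356 and 2352 in untreated cells, at 2082, 1946 and 2297 at d1 and at 1948, 2011 and 2167 at d4. At d7 the counts were 3496, 3437 and 2279, and at d10 2263, 2324 and 2191. They were 3243, 3303 and 3198 at d15 and 2325, 2070.2 and 2072 at d20. The first and second libraries of d7 thus lay with those of d15, and the third lay with the untreated libraries. The log2 fold change was 0.37 ± 0.10 at d7 (adjusted p = 0.00321) and 0.58 without the third library (2.61e-13), and the call was lost in a fit of only d0 and d7 (0.0694). It was 0.48 ± 0.10 at d15 (0.000255). At d1, d4, d10 and d20 it was -0.14, -0.19, -0.04 and -0.11, none of which passed the test in the fit of all timepoints. In fits of only the 2 timepoints compared, d1, d4 and d20 were called lower with these values (adjusted p = 0.00748, 0.000154 and 0.0207). After rescaling to the same total these 4 days were called lower (-0.27 to -0.39), the value at d15 was 0.32 (adjusted p = 0.00701) and that at d7 was 0.18 (0.113). SCRIB shares 18 of its exon bases with the microRNA gene MIR937 on the same strand, whose mean was at most 0.99 at any timepoint.

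DLG1, the membrane-associated guanylate kinase scaffold of the same module, was the steadiest member. Its untreated libraries held 2450.0, 2431 and 2397, those of d1 2454, 2482 and 2410, and those of d4 2564, 2488 and 2658. The libraries of d7 held 2551, 2540 and 2341, those of d10 2578, 2645 and 2599, those of d15 2823, 2930 and 2722, and those of d20 2406, 2312 and 2538. The highest mean of the 7 timepoints, 2825 ± 104 at d15, was 1.17 times the lowest, 2419 ± 113 at d20. The log2 fold change was 0.22 ± 0.04 at d15 (adjusted p = 5.78e-05) and 0.10 at d10 (0.0304), and it was between -0.01 and 0.08 on the other days without a call. Without the third library of its group, d7 was at 0.07 (0.106). The call at d10 was lost with edgeR (0.162), with DESeq2 (0.0539) and without 4 of the 6 libraries compared. Rescaled to the same total, d15 was no longer called (0.06, adjusted p = 0.181), and d1, d4, d7, d10 and d20 were called lower (-0.11 to -0.21). DLG1 shares 241 of its 11001 exon bases with DLG1-AS1 on the opposite strand, for which no symbol is in the table.

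From day to day, the members turned together around d15. From d10 to d15, 7 of the 8 rose and 0 fell in the limma test, where 39.3% of all genes rose and 40.5% fell. From d15 to d20, 6 fell and 0 rose, with limma and also with edgeR and DESeq2, against 36.3% and 37.7% of all genes. The rise into d15 was 0.71 ± 0.08 on the log2 scale for LLGL2 (adjusted p = 9.16e-08), 0.62 for PARD3 (6.11e-10), 0.52 for SCRIB (9.65e-05), 0.40 for CRB3 (0.0246), 0.31 for PRKCI (1.12e-07) and 0.12 for DLG1 (0.0145). PARD6A rose by 0.76 ± 0.35 (adjusted p = 0.0482), and PARD6B was at 0.30 (0.367). With quantile normalization CRB3 lost its calls on both sides of d15 (adjusted p = 0.864 and 0.12) and PARD6A its rise (0.431). Without the second library of d15 the number that rose was 4. With edgeR 7 rose, with DESeq2 5, and 0 fell with either tool or at an unadjusted p under 0.05. The steps into and out of d15 share its libraries.

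In the earlier steps fewer members moved. From d1 to d4 PARD3 rose and CRB3 and LLGL2 fell, 1 and 2 of 8, against 32.9% and 32.0% of all genes. From d4 to d7 PARD6A and SCRIB rose and PARD3 and PARD6B fell, 2 each, against 25.5% and 25.5%. Of these, PARD6A was not called with DESeq2 (adjusted p = 0.101), and PARD6B was called with neither edgeR (0.0625) nor DESeq2 (0.055). The change of PARD6B in that step was -0.87, or -1.34 without the third library of d7. From d7 to d10 CRB3, LLGL2, PARD3, PRKCI and SCRIB fell and none rose, 5 and 0 of 8 with limma, edgeR and DESeq2 alike, against 35.2% and 36.2%. The 5 falls lay between -0.13 for PRKCI and -0.75 for CRB3, and without the third library of d7 the same 5 genes were called, from -0.12 to -0.75. After quantile normalization CRB3 was not (-0.34, adjusted p = 0.0617).

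The rise of PARD3, PRKCI, SCRIB and DLG1 at d15 came with the lowest level of cell cycle genes. The 20 listed proliferation genes summed to a mean of 98078 in untreated cells, to 58092 (59.2%) at d4 and to 31643 (32.3%) at d15, while d7, d10 and d20 had 71187 (72.6%), 94493 (96.3%) and 97996 (99.9%). All 20 were lower at d15 and at d4, and MKI67 stood at 3291 at d15 against 10671 in untreated cells. At d4 PARD3 and PRKCI were called higher (0.65 and 0.18) and DLG1 was not called (0.08). SCRIB had its lowest mean of the course at d4 (2042, 87.8% of d0). The limma call of DLG1 at d15 was lost after rescaling to the same total (0.06, adjusted p = 0.181). Across the 21 libraries, which fall into 7 groups of 3, Pearson's r of log2(count + 1) with MKI67 was -0.83 for PARD3, -0.87 for PRKCI, -0.70 for SCRIB and -0.79 for DLG1, and between -0.19 and 0.23 for the 4 members that fell. Other lists were higher at d15 too. The basal markers were at 162% of their untreated sum and the leukocyte list at 185%, while the luminal markers were at 103%. The endothelial list was at 303% (275 to 291 against 81.1 to 109, with KDR at a mean of 263 and CDH5 at 0.30). The adipocyte list was at 282% (36.2 to 45.6 against 10.9 to 17.8). Genes within these lists did not move together. KRT17 had a mean of 186677 at d15 against 39309 untreated, while KRT5 was lower (-0.35). CD68 made up 753 of the leukocyte sum of 776, while CD14 fell from 46.4 to 16.4. PECAM1 fell from 41.3 to 9.06, and PLIN1 held 25.1 of the adipocyte sum of 40.5. The part of proliferation and of these lists in the members' values was not tested.

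**Figure D3:**
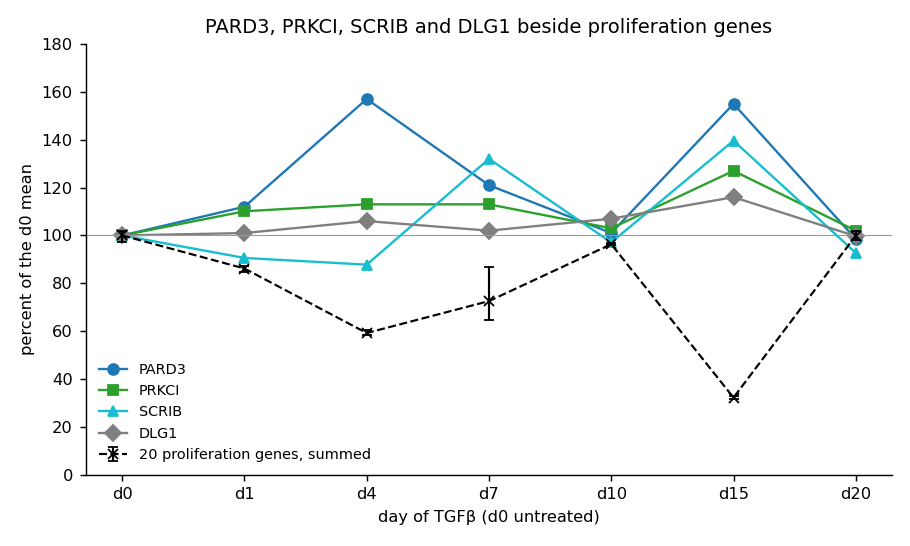
Means of PARD3, PRKCI, SCRIB and DLG1 and the sum of 20 proliferation genes, as percent of the untreated mean (vertical axis, starting at 0) at the 7 timepoints (horizontal axis, evenly spaced), with bars on the sum from the lowest to the highest library. At d15 the 4 members reach 116% to 155% while the proliferation genes are at 32.3%, and at d20 both are near 100%.

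Some members had courses alike. Over the 21 libraries, Pearson's r was 0.93 between CRB3 and LLGL2, 0.73 between CRB3 and PARD6B, 0.62 between LLGL2 and PARD6B, and 0.83 between PARD3 and PRKCI. PARD6A, with its few reads, had its highest value with LLGL2 (0.45). Among 11484 other genes with a mean of at least 50, the courses most like that of CRB3 were those of MAL2 (r = 0.96), IGFBP2 (0.95) and SVEP1 (0.94). MAL2, which carries cargo to the apical membrane, went from a mean normalized count of 4255 at d0 to 381 at d20. For LLGL2 they were RAPGEFL1 (0.96), DBNDD1 (0.95) and CA2 (0.95), for PARD6B AKR1A1 (0.85), CCNA1 (0.82) and SVEP1 (0.81), and for PARD6A MCCC1, LOC100306951 and ADI1 (0.87 each). Those most like PARD3 were TLE1, C17orf39 and TTC7A (0.97 each), those most like PRKCI were CNN2 (0.92), DEF6 and SOCS3 (0.91 each), those most like SCRIB were ZNF563, SCAP (0.95 each) and C16orf5 (0.94), and those most like DLG1 were YTHDC1 (0.86), TCF12 and ZNF263 (0.85 each). The 21 points share their timepoints, and these values describe the courses only.

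The partners and paralogs in the same complexes moved in both directions. In the Crumbs complex 4 of the 7 other genes were tested. MPP5, the symbol of PALS1 in the table, had a mean of 1207 at d0 and 1206 at d20 (log2 fold change 0.00), and INADL, the symbol of PATJ, went from 1169.9 to 957 (-0.29, adjusted p = 6.89e-05) after a rise of 0.48 at d4. LIN7C was lower on 4 days (-0.52 at d20), LIN7B with at most 27 reads was lower at d10 alone (-1.42), and CRB1, CRB2 and LIN7A had at most 6, 3 and 1 reads. CRB3 was thus the only Crumbs family gene above the filter.

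Among the PAR6 genes of the PAR complex, PARD6G had the highest level. Per kilobase of the longest coding transcript, the normalized count at d0 was 341 for PARD6G, 21.4 for PARD6A and 19.5 for PARD6B, and at d20 it was 229, 8.52 and 7.78. PARD6G was higher at d7 (0.26) and lower on 4 days, by no more than 0.58 on the log2 scale. PRKCZ, the other atypical protein kinase C, was higher at d4, d7 and d15 (0.48, 0.54 and 0.74) and lower at d10 (-0.24), and CDC42 was higher on 5 days (0.13 to 0.41) and lower at d15 (-0.26). PARD3B had at most 13 reads and was not tested.

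In the Scribble module LLGL1, the paralog of LLGL2, stayed between means of 2679.9 and 3116, with calls only at d4 and d15 (-0.21 and -0.20). Per kilobase, LLGL1 was at 726 at d0 and 716 at d20, whereas LLGL2 went from 230.3 to 70.2. Among the DLG genes, DLG3 was lower on all 6 days (-0.26 to -0.90), DLG5 was higher on all 6 (0.44 to 0.68), and DLG4 was lower at d1 (-0.48) and higher on the other 5, reaching 231 at d15 from 43.2 at d0 (2.40, adjusted p = 1.22e-11). DLG2 had at most 16 reads. Rescaling to the same total lowers all of these values by about the shift of all genes and so turns the direction of those nearest to 0.

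**Figure D4:**
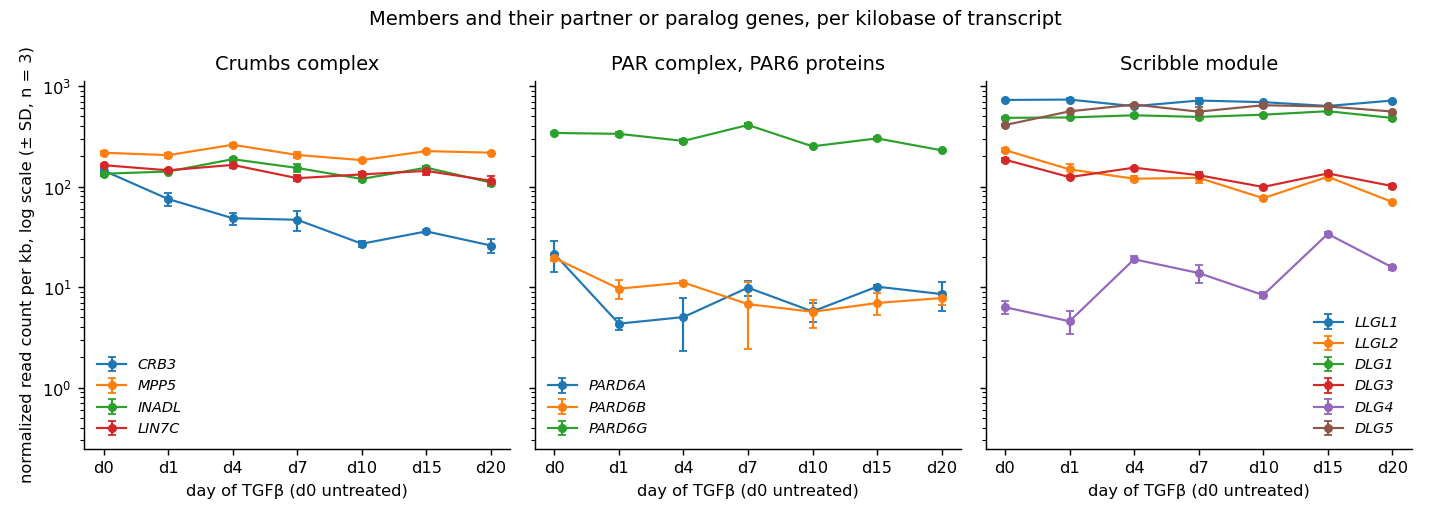
Normalized read count per kilobase of the longest coding transcript (vertical axis, log scale, ± SD, n = 3) of members and of their partners or paralogs at the 7 timepoints (horizontal axis, evenly spaced). PARD6G lies above PARD6A and PARD6B at every timepoint, and LLGL1 stays near its untreated level of 726 while LLGL2 goes from 230.3 to 70.2.

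Beyond the 8 members, the wider lists of polarity genes moved in both directions. They hold 65 other genes, of which 60 were tested. Over the 6 days in order, 22, 30, 28, 22, 28 and 24 of these were higher and 19, 19, 14, 26, 22 and 19 lower. The share called higher was smallest at d1 and d10 (36.7% of the 60), and the share called lower lay between 23.3% and 43.3%. Over all genes the shares were 31.3% to 39.2% and 28.5% to 37.3%. Their median log2 fold change lay between -0.08 and 0.14. After rescaling to the same total, 13, 21, 23, 14, 24 and 14 were higher and 32, 24, 24, 35, 24 and 32 lower. The rescaled shares of all genes are those given above. A change of at least 1 on the log2 scale in either direction was reached with a call on some day by 20 of the 60, and by 30.4% of all genes.

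Genes of the apical domain and its trafficking gave the largest of these changes. PODXL, an apical sialomucin, was higher on every day and rose from 104 to 1096 at d20 (3.39, adjusted p = 9.86e-14). MAL2 fell by 3.71 at d10 and by 3.48 at d20, and RAB25, a GTPase of apical recycling endosomes, was lower on every day (-1.58 at d20). MYO5B, the motor of these endosomes, was higher at d1 and d4 and lower at d7, d10, d15 and d20 (-0.21, -0.38, -0.54 and -1.12). STX3, an apical SNARE protein, was higher on every day (1.36 at d4), and SYTL2 was at 1.88 at d15 and -1.69 at d10. Of the 15 genes of the list, 5 were higher (33.3%) and 4 lower (26.7%) at d20, or 2 and 9 after rescaling. Over all genes 32.5% were higher and 30.2% lower at d20, or 19.9% and 50.8% after rescaling.

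The kinases and partners list of 17 genes had 9 higher (52.9%) and 3 lower (17.6%) at d20, or 5 and 7 after rescaling. The shares of all genes at d20 were 32.5% and 30.2%, or 19.9% and 50.8% after rescaling. MARK4, of the PAR1 kinase family, was at 1.17 at d15, AMOTL2 at 1.24 and FRMD4A at 1.45. Both AMOTL2 and FRMD4A were higher on every day. TIAM1 and ECT2, exchange factors for small GTPases, were lower at d15 (-1.40 and -1.33), and ECT2, which acts in cytokinesis, was at -0.06 at d20. AMOT, with at most 30 reads, was at 1.06 at d7. Of 17 planar cell polarity genes, 7 were higher (41.2%) and 8 lower (47.1%) at d20, or 4 and 9 after rescaling, beside the same shares of all genes. PRICKLE1 was lower on every day (-3.25 at d4) while PRICKLE2 was higher on every day (1.17 to 1.57), as was DVL1 (1.56 at d4). CELSR2 fell at d1, d4, d10 and d20 (-2.35 at d10) and was at 0.01 and 0.04 at d7 and d15, CELSR3 was at 1.73 at d15, and FZD3 was lower on every day (-1.24 at d20).

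**Figure D5:**
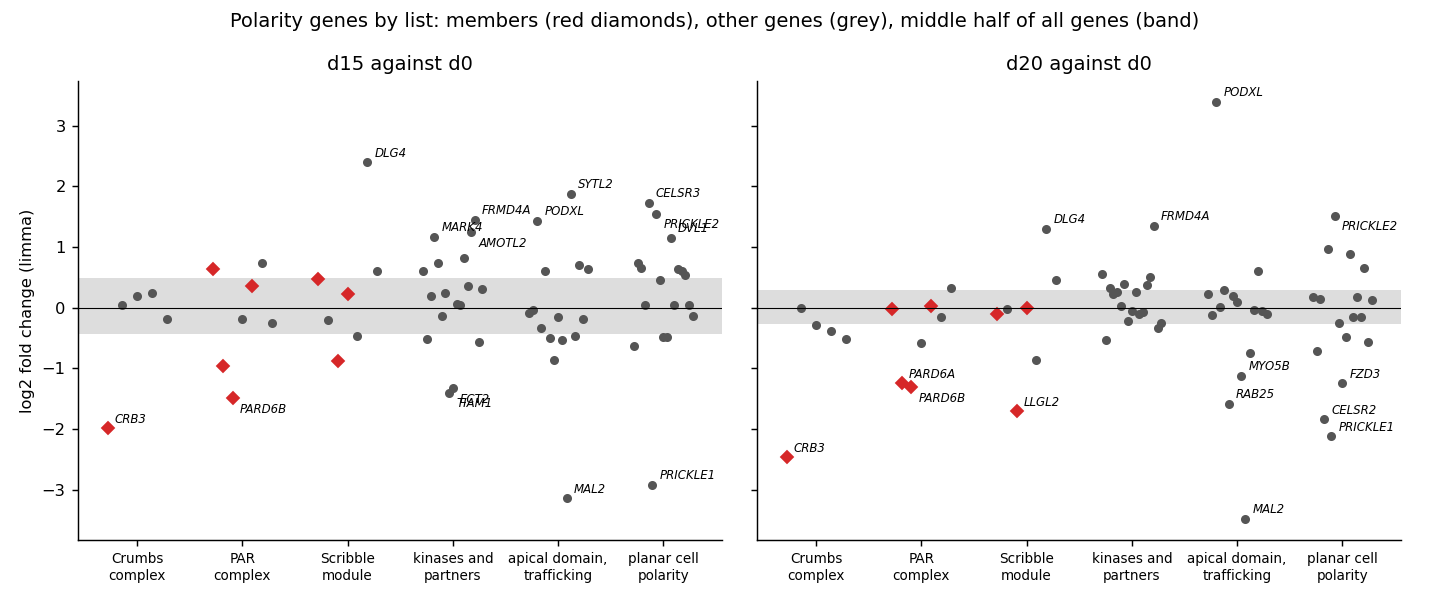
Log2 fold change against untreated cells at d15 (left) and d20 (right) on the vertical axis for each tested gene of 6 polarity lists on the horizontal axis, members as red diamonds, other genes in grey, and the range from the lower to the upper quartile of all genes as a band. CRB3 is the lowest gene of the Crumbs list on both days, and MAL2 and PODXL lie furthest apart in the apical list at d20 (-3.48 and 3.39).

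Most junction genes listed as context were lower at d20, as were CRB3 and LLGL2. Of 13 genes 10 were lower and 1 higher at d20, with a median of -1.33, against 30.2% and 32.5% of all genes. After rescaling to the same total, 12 were lower and 1 higher, against 50.8% and 19.9% of all genes. At d1 only 6 were lower and 3 higher, against 28.5% and 31.3%. CDH1 was not called at d1 (-0.10) or d7 (0.00), and F11R was higher on 4 days. OCLN went from 226 to 57.4, CGN from 561 to 158 and CDH1, E-cadherin, from 7195 to 2868, whereas TJP1 (ZO-1) was higher on every day, at 4638 against 2874 in untreated cells.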

How the data were processed

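RNA-seq of HMLE cells, described by the study as biological triplicates, was analysed at the level of the deposited table. The authors deposited a normalized signal per gene symbol and library (hg19, STAR 2.7 and Salmon 1.4 per the submitters' processing notes, which give no role or order), which equals whole reads divided by a size factor of the library. All values (100%) came out within 0.1 of a whole number of reads. On these reads edgeR called between 8053 genes (d1) and 10286 genes (d15) against d0. The text calls the signal a normalized read count.

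Genes with a mean of at least 10 were tested on log2(count + 1) with limma 3.58.1 in R 4.3.3 (eBayes with a trend, all 7 timepoints in one fit, two-sided) and p-values adjusted by Benjamini-Hochberg in each contrast (13343 genes, threshold 0.05). Alternatives tried were no filter (19546 genes), a pseudocount of 10, rescaling to the same total, quantile normalization, a fit of only the 2 timepoints compared, edgeR 4.0.16, DESeq2 1.42.0 and each library left out in turn. On data simulated for d20 against d0 (13334 genes tested), limma recovered 71 of 80 genes changed 1.5-fold. It recovered 50 of 54 changed 2-fold and 64 of 64 changed 4-fold, with 8 false calls. The simulated spread was set by a formula and not taken from these libraries. Far fewer genes were changed than were called at d20, so the recovery in these data was not measured. The floor of 3 reads covers counting error only.

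The members and lists were chosen with earlier results of these data known. The 8 members are given in full, other genes of the 3 core complexes by name, further list genes where an adjusted p under 0.05 and a log2 change of at least 1 were met on some day, and for each member the 3 genes with the highest Pearson correlation among genes averaging 50 or more. Exon overlaps and transcript lengths came from GENCODE 29, promoters from RefSeq on GRCh38.p14. Figures were drawn with matplotlib 3.10.9.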

Additional observations from a re-analysis of the deposited data

Results flagged for a closer look

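In these results a member changed in one direction between neighbouring timepoints and in the other direction in the next step, both steps passing the limma test. LLGL2, PARD3, SCRIB, CRB3, PRKCI and DLG1 rose from d10 to d15 by 0.71, 0.62, 0.52, 0.40, 0.31 and 0.12 on the log2 scale and fell from d15 to d20, though neither step of CRB3 passed after quantile normalization. CRB3, LLGL2, SCRIB, PARD3 and PRKCI had changed by -0.75, -0.66, -0.42, -0.26 and -0.13 from d7 to d10 before that rise. PARD3 rose by 0.48 from d1 to d4 and changed by -0.38 from d4 to d7. SCRIB rose by 0.56 from d4 to d7, and by 0.76 without the third library of d7, which stood apart, before the change to d10.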

How the results depend on the processing

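Of 336 fold changes of members recomputed under another setting, 295 had the same direction and the same call, as did 271 of 288 with a library left out. CRB3 and LLGL2 kept all their calls against d0 under every alternative run (-2.66 to -0.87 and -1.91 to -0.55), and PARD6A and PARD6B lost 5 and 2 calls, all with a library left out. In a fit of only the 2 timepoints SCRIB lost its call at d7 (0.37, adjusted p = 0.0694) and gained calls at d1, d4 and d20.

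Rescaling to the same total left 0, 1, 0 and 0 members higher on the first 4 days, and 8 lower at d10 and 8 at d20. In the wider lists it gave 13 higher and 32 lower at d1, 24 lower at d7, 14 higher at d10, and 14 higher and 32 lower at d20. It turned PARD3 to -0.03 at d1 and -0.21 at d10, PRKCI to -0.05, -0.02, -0.02, -0.19 and -0.17 (d1, d4, d7, d10, d20), and DLG1 to -0.18, -0.11, -0.16 and -0.12 (d1 to d10). These follow from the lower median of all genes under that scaling.

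Quantile normalization left 0 members higher at d1 and 0 at d10, with 3 rising from d1 to d4. It turned PRKCI to -0.00 at d1, -0.15 at d10 and -0.12 at d20, DLG1 to -0.13, -0.03, -0.06 and -0.09 (d1 to d10), and PARD3 to -0.12 at d10. With it limma called PRKCI lower at d10 and d20 (adjusted p = 0.0014 and 0.00704). DLG1 was called lower at d1 and d20 (0.0135 and 0.0058), and SCRIB at d1 and d4 (0.0364 and 0.0183). The cause was not tested. With edgeR, 0 members were higher at d10 and 1 fell from d4 to d7, DLG1 was at -0.00 at d1 and PARD3 at -0.02 at d10. With DESeq2, 0 were higher at d10, and 1 rose and 1 fell from d4 to d7, as in the fit of only those 2 timepoints (1 and 1).

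With each library left out, the members higher at d10 ranged from 0 to 1, those rising from d4 to d7 from 1 to 2, those falling there from 1 to 2, and those rising from d10 to d15 from 4 to 7. The direction also turned, without a call, for PARD3 at d10 (-0.01 to 0.05) and at d20 (-0.05 to 0.02), for PRKCI at d20 (-0.00 to 0.04) and for DLG1 at d20 (-0.04 to 0.03). No paired analysis was possible because replicate numbers are missing from the column names. Depth limits PARD6A, with 3 to 40 reads a library, more than any other member.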

Other observations

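The level of a member relative to its partner within each library, which hardly depends on the scaling of the library, was computed after the values were seen and is given without a test. On the scale of log2(count + 1), LLGL2 relative to LLGL1 was between -2.00 and -1.86 in the untreated libraries and between -3.66 and -2.43 in the 18 treated ones. CRB3 relative to MPP5 was between -2.68 and -2.42 untreated and between -5.25 and -3.07 treated. PARD6B relative to PARD6G was between -3.95 and -3.74 untreated and between -6.51 and -4.34 treated, and the lowest of these was the first library of d7. PARD6B relative to PRKCI, its binding partner, was between -4.80 and -4.62 untreated and between -7.28 and -5.57 treated. LLGL2 relative to SCRIB went from a mean of -1.52 at d0 to -3.12 at d20. PARD6A relative to PARD6G, with few reads, was between -6.23 and -5.22 untreated and between -8.10 and -5.99 treated, so that the groups overlapped for this ratio.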
